A study of Rattus norvegicus with 16 samples.

Results

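The 200 rows of the deposited expression table that were most enriched in bone with marrow were examined, out of 31099 rows measured on 16 arrays. For each row, the mean of the 8 arrays of cortical bone was subtracted from the mean of the 8 arrays of bone with marrow, over both diets, and the 200 rows with the highest difference were taken. They make up 0.643% of the table. Values are log2 expression levels, so that a difference of 1 is a factor of 2. Each row is called by its place in the table (row 1 is the first), because the probe set identifiers beside the values could not be used. The values are sorted by the size of the vitamin A statistic with marrow (Spearman correlation of row number with that size -0.9989), which the identifiers do not follow. Pairs of rows carrying 1 gene symbol, 9609 in all, correlated over the arrays with a median of 0.012, against 0.017 for random pairs. No gene can therefore be named, no sequence printed, and no marker of marrow, bone or any other cell type read in these data. A row still holds 1 feature in all 16 arrays.

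The arrays come from male Sprague-Dawley rats aged 8 weeks, on pellets with 12 IU vitamin A per g (control) or 1700 IU per g (excess vitamin A, as retinyl palmitate and retinyl acetate) for 8 days, with 12 animals per diet housed in groups of 3. RNA was taken from the shaft of the humerus, freed of periosteum, both ends and growth plates. Bone with marrow was crushed whole, and cortical bone was cut up and vortexed in cold phosphate-buffered saline to remove marrow cells first. Every combination of tissue and diet has 4 arrays, numbered 1 to 4 by their titles, and each array carries an animal code of its own. For 2 arrays (control 1 of cortical bone and control 1 of bone with marrow) the tissue field of the labels contradicts the title and source name. They were grouped by title. Medians of the arrays over all rows lay between 5.99 and 6.03.

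The cavity of a long bone's shaft is filled with marrow, where blood cells of the red, white and platelet lineages are made. The surrounding cortex holds mainly osteocytes in mineral, which yield little RNA. According to the design text, unwashed bone yielded roughly 4 times the RNA of washed bone and was regarded as mostly marrow. Excess vitamin A, which acts on cells as retinoic acid through nuclear receptors, is known in rodents to thin cortical bone and cause fractures. RNA of marrow-enriched rows in a washed bone can come from marrow cells left behind or from the bone's own cells, and these cannot be told apart here. In any such bulk sample, fewer cells of a type and less RNA per cell cannot be told apart either.

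In the 200 rows, the tissue difference that chose them ran from 1.32 to 2.00 log2 units, with a median of 1.49, or 2.81-fold. A single row, 11526, reached 4-fold, and 64 rows reached 3-fold. Row 11526 stood in bone with marrow at 8.46, 9.62, 8.89 and 9.38 in controls and at 9.09, 8.44, 8.64 and 8.68 under vitamin A. In cortical bone it stood at 7.39, 7.76, 6.65 and 7.67 in controls and at 5.50, 6.19, 6.49 and 7.52 under vitamin A. All 8 arrays with marrow lay above all 8 without it. Rows 4170, 18300, 13194 and 28228 followed, with differences of 1.99, 1.97, 1.97 and 1.96. At the limit the values changed little: rows 5243, 4470 and 1916 were just inside with 1.33, 1.32 and 1.32, and rows 14967, 1084 and 3595 just outside with 1.32 each. These values are the choice itself and support nothing. Without overlap of the 8 arrays against the other 8, the rows numbered 153 of 200, where 5.88% of all rows were higher with marrow in that way.

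The marrow-enriched rows were not silent in washed cortical bone. Their mean level there had a median of 7.56, and 177 of the 200 lay above the middle of all rows, 95 of them above the upper quartile. Only 2 lay below the lower quartile. In bone with marrow their mean levels ran from 5.86 to 12.67, with a median of 9.10.

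How much marrow signal each array carried was read on rows chosen without that array. For each array in turn, the 200 rows with the highest tissue difference among the other 15 arrays were taken, of which 179 to 192 were the same as in the full choice. The linear level of each row in the array was then divided by its geometric mean in the other arrays of bone with marrow. That is the mean of the log2 levels turned back to the linear scale. The median of the 200 ratios was taken. The rule alone holds the geometric mean over the 8 cortical arrays between about 25.0% and 40.0% for every member of the full choice. Only the order and spread of the arrays therefore carry information. For a single array the range from the 10th to the 90th percentile of its 200 rows is also given. That range shows how the rows differ, and measures neither the uncertainty of the array's value nor the spread between animals.

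Washed cortical bone of controls carried 42.3% ± 13.0 (SD, n = 4) of the level with marrow. Control 3 had the lowest value, 26.2% (18.1% to 34.8% of its rows' middle range), and control 4 the highest, 56.2% (45.6% to 72.9%). Control 1 stood at 37.9% and control 2 at 48.7%. These 2 bones were on the same diet and are the lowest and highest of the 4. In 196 of the 200 members control 4 was higher than control 3, by a median of 1.10 log2 units or 2.14-fold. The members varied together and are not replicates, so that count only describes 2 arrays. The share over all rows was not computed for it.

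Under excess vitamin A, cortical bone carried 32.6% ± 7.12 (SD, n = 4). Array 2 stood at 27.0%, array 1 at 28.7%, array 3 at 31.9% and array 4 at 42.8%. All 4 fell inside the span of the controls, from 26.2% to 56.2%. The difference between the diets, 42.3% against 32.6%, was smaller than the SD of the controls. Without control 3 the control mean was 47.6%, and without vitamin A array 4 the treated mean was 29.2%.

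Among the arrays of bone with marrow, controls stood at 77.3%, 134.5%, 119.6% and 114.7% of the others' level, and vitamin A arrays at 94.9%, 82.0%, 89.9% and 88.3%. Control 1, whose tissue field contradicts its title, was thus the lowest of the 8, and the other 3 controls were the highest. The vitamin A arrays were close together, with an SD of 5.34 percentage points against 24.3 in controls. None of the 16 arrays crossed to the other tissue: the 8 cortical arrays reached at most 56.2% and the 8 arrays with marrow at least 77.3%.

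**Figure D1:**
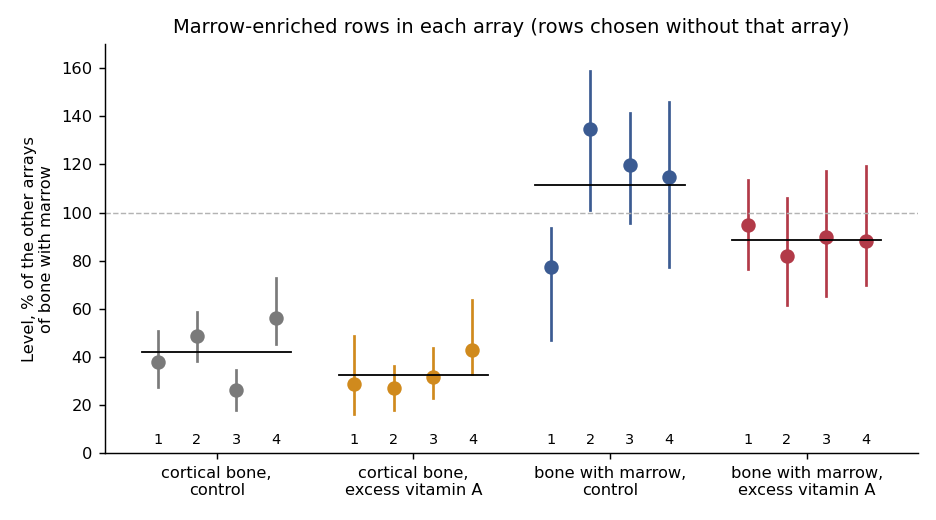
Level of the marrow-enriched rows in each of the 16 arrays, as a percentage of their geometric mean in the other arrays of bone with marrow (vertical axis, linear), on 200 rows chosen without that array. Dots are medians over rows, vertical bars run from the 10th to the 90th percentile of rows, black lines are group means of 4 arrays, and digits are array numbers; control cortical bone spans 26.2% to 56.2% and contains all 4 values of cortical bone under vitamin A.

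Row by row, the arrays with contradictory labels lay on the side of their titles to differing degrees. In the array titled cortical bone control 1, 190 of its 200 rows lay below every array with marrow, and 4 were nearer to the mean with marrow than to that of cortical bone. In the array titled bone with marrow control 1, 156 of 200 lay above every cortical array and 166 were nearer to the mean with marrow. The other arrays with marrow had 175 to 196 rows above every cortical array. On the cortical side, control 4 stood apart: 151 of its rows lay below every array with marrow, 87 were nearer to the mean with marrow, and 129 exceeded every other cortical array.

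The members moved together from animal to animal. After the mean of each diet was removed, the median correlation between 2 members was 0.75 over the 8 cortical arrays and 0.61 over the 8 arrays with marrow, against 0.02 and -0.001 for random pairs of rows. The 200 rows most enriched in cortical bone, from the other end of the same ranking, had 0.40 in cortical bone and 0.67 with marrow, a difference from the members that was not tested. The arrays that chose the members are the same, so these values describe the set. In cortical bone 145 members had their highest control value in control 4 and 176 their lowest in control 3. Under vitamin A, 165 were highest in array 4. In bone with marrow, 186 had their lowest control value in control 1 and 131 their highest in control 2. Shares over all rows were not computed for these counts, which are a description only. A single component held 66.6% of the variation within diets in cortical bone and 57.7% in bone with marrow.

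The spread between animals was also larger than over all rows. The median SD of a member over the 4 arrays was 0.53 in control cortical bone, against 0.16 over all rows, and 0.39 against 0.20 in cortical bone under vitamin A. In bone with marrow it was 0.32 against 0.14 in controls and 0.20 against 0.14 under vitamin A. All 200 members had an SD above the all-row median in control cortical bone. The 200 rows most enriched in cortical bone had less spread than the members in cortical bone (0.28 in controls, 0.25 under vitamin A) and more with marrow (0.45 in controls, 0.22 under vitamin A). This difference between the ends was not tested.

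**Figure D2:**
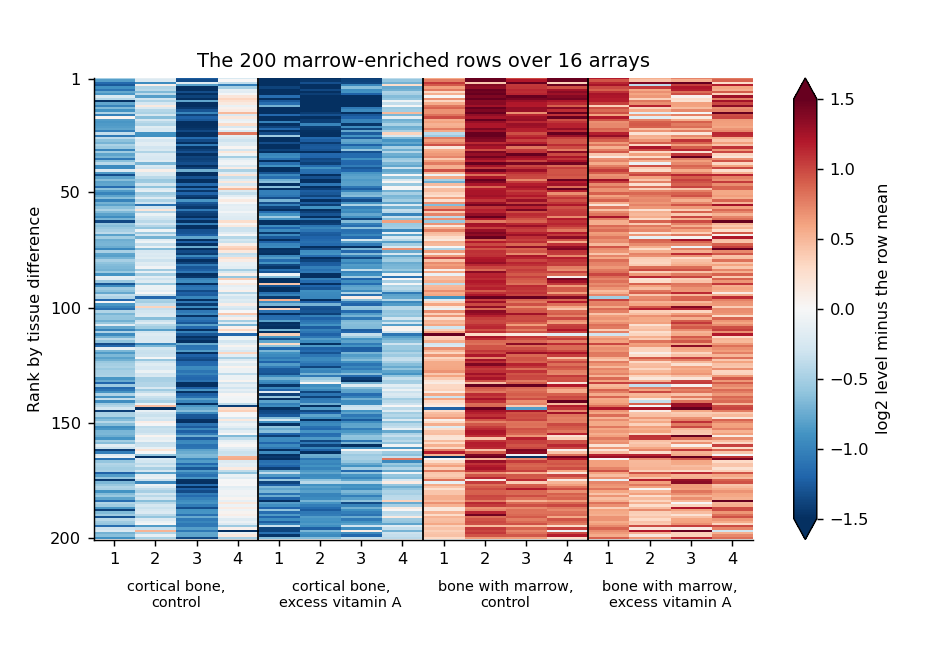
Log2 level of each of the 200 members minus its mean over the 16 arrays (colour, cut at -1.5 and 1.5), with members ranked by tissue difference from top to bottom and arrays in columns by tissue, diet and number. Whole columns differ in tone within a group: cortical bone control 3 is the darkest blue of its group in 176 members and bone with marrow control 1 the palest red of its group in 186.

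In bone with marrow, no member passed the test for an effect of excess vitamin A, and most fitted effects were below 0. The test was limma on all rows, fitted to 4 group means, and called 121 rows (0.389% of all) at an adjusted p under 0.05 and 0 of the 200 members. The lowest adjusted p among members was 0.151. At an unadjusted p under 0.05 there were 27 members, 23 lower and 4 higher, where all rows gave 3.82% lower and 5.44% higher. The fitted effects had a median of -0.29 log2 units over members and -0.03 over all rows. Of the 200, 153 were below 0 and 47 above, where 57.7% of all rows were below 0. Groups did not overlap in 5 members that were lower and 3 that were higher, where 3.1% and 2.97% of all rows did so, close to the background.

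Row 324 had the lowest p of the members in bone with marrow. It stood at 6.45, 7.33, 7.10 and 7.12 in controls and at 6.23, 5.58, 6.40 and 5.99 under vitamin A. The groups did not overlap, control 1 being only just above vitamin A array 3. The effect was -0.95 ± 0.25 (SE, limma adjusted p = 0.151). In cortical bone, where its level was low, row 324 stood at 5.27, 4.99, 4.36 and 5.63 in controls and at 4.54, 4.27, 4.50 and 4.99 under vitamin A, an effect of -0.49 ± 0.25 (limma adjusted p = 0.64).

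Row 518, a bright row, was lower under vitamin A in both tissues without passing the test. With marrow it stood at 11.18, 11.54, 11.62 and 11.34 in controls and at 11.04, 10.55, 10.86 and 10.66 under vitamin A. Groups did not overlap, and the effect was -0.65 ± 0.19 (SE, limma adjusted p = 0.196). In cortical bone it stood at 9.76, 10.07, 9.17 and 10.04 in controls and at 8.59, 8.96, 9.02 and 9.30 under vitamin A. Control 3 lay inside the treated range, and the effect was -0.80 ± 0.19 (limma adjusted p = 0.125), the lowest adjusted p of the members in cortical bone.

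Row 1098 had tight groups with marrow, at 8.85, 9.06, 9.01 and 9.04 in controls and 8.44, 8.25, 8.16 and 8.32 under vitamin A. The effect was -0.70 ± 0.25 (SE, limma adjusted p = 0.349), with an error that is shared with the more variable cortical arrays. Fitted on only the 8 arrays with marrow, the same row had a limma adjusted p of 0.025, the single member called in that fit. Calls over all rows in that fit are not set beside it. In cortical bone its effect was -0.61 (limma adjusted p = 0.503).

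A few members went the other way, higher under vitamin A in both tissues. Row 472 stood with marrow at 7.09, 7.23, 7.24 and 7.03 in controls and at 7.48, 7.73, 7.78 and 7.73 under vitamin A, without overlap (effect 0.53 ± 0.16, SE, limma adjusted p = 0.207). In cortical bone it stood at 5.62, 5.91, 5.69 and 6.20 in controls and 6.41, 5.83, 6.46 and 6.58 under vitamin A, with overlap (0.46 ± 0.16, limma adjusted p = 0.399). Row 1257 had effects of 0.44 and 0.45 in bone with marrow and cortical bone (limma adjusted p = 0.385 and 0.441), and row 1916 had 0.41 and 0.29 (limma adjusted p = 0.467 and 0.697). Without cortical control 3 the effect of row 1916 in cortical bone was 0.11. None of the 3 passed the test in either tissue, although they are the members with the lowest p among those above 0 in both.

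Alternatives with marrow gave other values. Without control 1 the median effect was -0.41, and row 324 was called, as the single member, at a limma adjusted p of 0.0234. The calls over all rows in that fit are not set beside it. With control 1 left out, the 4 vitamin A arrays lay below the remaining 3 controls in 106 of the 200 members (53%), where 8.07% of all rows did so. That count was made after the values were seen, and its 3 controls also helped to choose the members, so it is a description only. Control 1 itself lay below all 4 vitamin A arrays in 78 members. The share over all rows was not computed for that count, and control 1 also helped to choose the members, so it too is a description only. With the tissue field deciding the place of both contradictory arrays the median effect was 0.039, and with a covariate for where each array lay between the tissues it was 0.11, with 133 members above 0. That position was computed on the rows that are not members, from cortical bone (0) to bone with marrow (1). It was 0.70, 1.34, 1.20 and 1.18 in control arrays 1 to 4 and 0.79, 0.79, 0.97 and 0.81 under vitamin A. The position thus moved with the diet and was read on rows that include those most enriched in cortical bone, so position and diet cannot be told apart here.

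In cortical bone too, no member passed the test for excess vitamin A, and nearly all fitted effects were below 0. The limma test called 66 of all rows (0.212%) and 0 of the 200 members, with a lowest adjusted p of 0.125. At an unadjusted p under 0.05 there were 58 members, 56 lower and 2 higher, where all rows gave 3.46% lower and 4.72% higher. The median effect was -0.37 over members and 0.02 over all rows. Of the members 178 were below 0 and 22 above, where 44.3% of all rows were below 0. Members with a fall of at least 1.5-fold, whatever their p, numbered 35, against 1.23% of all rows. A rise of that size was seen in 0 members, against 0.701% of all rows. Large shifts were not particular to the members. Of the 200 rows most enriched in cortical bone, 30 fell and 24 rose by at least 1.5-fold. At an unadjusted p under 0.05, limma gave 35 of those rows lower and 44 higher. Yet only 1 member, row 2504, had its 4 treated arrays below its 4 controls, where 1.05% of all rows did so, and 0 had them above, where 2.31% did.

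Row 2504 stood in cortical bone at 9.68, 9.97, 9.16 and 9.40 in controls and at 7.51, 8.76, 8.70 and 9.11 under vitamin A. Its highest treated array was only just below its lowest control. The effect was -1.03 ± 0.27 (SE, limma adjusted p = 0.21). With marrow it stood at 10.83, 11.35, 11.16 and 10.82 in controls and at 10.93, 10.17, 10.44 and 10.13 under vitamin A, an effect of -0.62 (limma adjusted p = 0.499). Row 1933 had -0.63 ± 0.18 in cortical bone (limma adjusted p = 0.275) and -0.44 with marrow (limma adjusted p = 0.457).

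Bones of 1 diet differed widely in these rows. The range of a member over the 4 control cortical arrays had a median of 1.20 log2 units, and over the 4 vitamin A arrays 0.86. Single arrays moved the fitted effects. Without control 3, the cortical array with the lowest marrow level, the median effect was -0.58, and rows 518, 7867 and 7252 were called lower (limma adjusted p = 0.0172, 0.0452 and 0.0324). The calls over all rows in that fit are not set beside these. Without control 4, the highest, the median effect was -0.23 and 0 members were called. With the position between the tissues as a covariate the median was -0.21, with 149 members below 0. That position was -0.05, 0.35, -0.19 and 0.33 in the cortical controls and -0.04, -0.06, -0.10 and 0.17 under vitamin A.

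**Figure D3:**
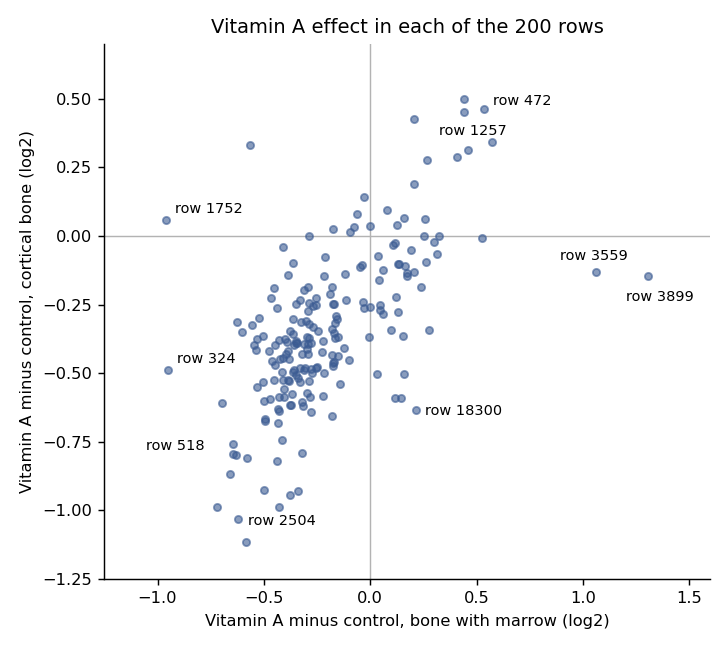
Fitted vitamin A effect (vitamin A minus control, log2 units) of each of the 200 members in bone with marrow (horizontal axis) and in cortical bone (vertical axis), 1 dot per row. Most dots, 144, lie below 0 on both axes and 13 lie above 0 on both; no dot passed the test on either axis.

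The 2 tissues share no array, and their effects are given side by side. In 144 members both effects were below 0, in 13 both were above, in 34 the effect was above 0 with marrow and below 0 in cortical bone, and in 9 the reverse. Over all rows the same counts were 9237, 8608, 4533 and 8721. By level, in the lowest, middle and highest tier of level with marrow (67, 66 and 67 members) the median effects with marrow were -0.26, -0.29 and -0.29. In cortical bone they were -0.26, -0.40 and -0.40.

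No member passed the test for a response to vitamin A that differed between the tissues. The limma test of the difference of effects called 1 row in the table (0.00322%) and 0 members. At an unadjusted p under 0.05 it also gave 0 members, against 3.99% of all rows. The median difference over members was 0.14 with a median standard error of 0.35. The lowest p belonged to row 1752. It stood with marrow at 7.83, 9.02, 9.27 and 8.71 in controls and at 8.01, 7.16, 7.58 and 8.24 under vitamin A, and in cortical bone at 6.97, 7.08, 5.69 and 7.39 against 6.06, 6.59, 7.33 and 7.36. Groups overlapped in both tissues, and the difference of effects was -1.01 (limma adjusted p = 0.983). In the other direction row 18300 had 0.85 and row 22102 had 0.73 (limma adjusted p = 0.983 each). Without cortical control 3 the difference was -0.65 in row 1752, and without cortical vitamin A array 1 it was 0.47 in row 22102.

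Row 18300 did not follow the other members. In cortical bone controls it stood at 8.14, 8.36, 9.12 and 8.92, so that control 3, the lowest in 176 members, was its highest. Under vitamin A it stood at 7.49, 7.98, 7.94 and 8.60. With marrow it stood at 10.37, 9.71, 11.01 and 9.66 in controls and 10.44, 10.72, 10.86 and 9.59 under vitamin A. Its correlation with the mean of the other members, within diets, was 0.19 in cortical bone and -0.24 with marrow, where the members' medians were 0.88 and 0.80. Only 1 member in cortical bone and 5 with marrow had such a correlation below 0.

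**Figure D4:**
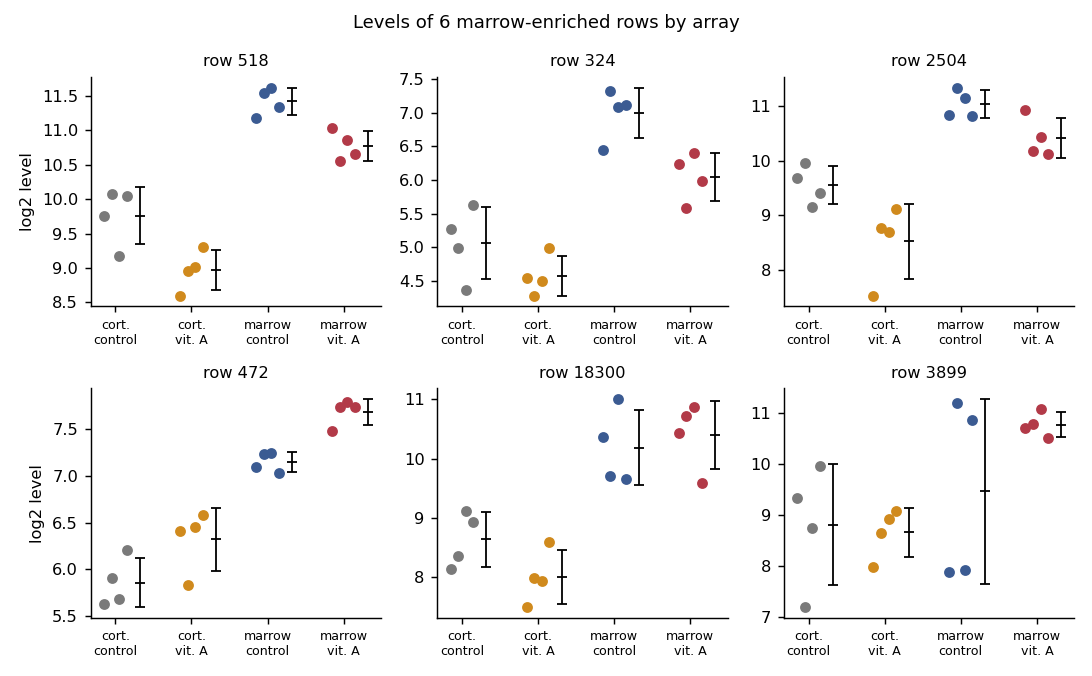
Log2 level of 6 members in every array, by tissue and diet (cort. is cortical bone, marrow is bone with marrow, vit. A is excess vitamin A), with 1 dot per array and the mean ± SD of 4 arrays beside it; each panel has its own vertical scale, which does not start at 0. Rows 518, 324 and 2504 are lower under vitamin A in both tissues, row 472 is higher, and none passed the test; row 3899 splits into high and low arrays within controls.

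The rows with the smallest and the largest remaining level in cortical bone were close in value, as the rule requires. Row 4170 had a median over the 8 cortical arrays of 24.2% of its level with marrow, from 11.1% in vitamin A array 1 to 50.6% in control 4. Row 18300 had 24.4% and row 5937 had 25.0%. At the other end, row 30919 had 44.6%, from 20.7% to 68.9%, and rows 28892 and 7936 had 43.8% and 43.5%. Within rows 4170 and 30919 the 8 bones thus spanned a wider range than the medians of all 200 members did.

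The other end of the tissue ranking behaved differently under vitamin A with marrow. The 200 rows most enriched in cortical bone had a median effect of 0.70 there, and 46 of them were called higher, where 0.383% of all rows were. The members had -0.29 and 0 calls. In cortical bone these opposite rows had a median effect of 0.14 and 7 calls, 2 higher and 5 lower, against the members' -0.37 and 0. Of all rows, 0.132% were called higher there and 0.0804% lower. The median effects over all rows were -0.03 with marrow and 0.02 in cortical bone. The difference between the lists was not tested.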

How the data were processed

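The values the authors deposited are log2 RMA levels of 16 Affymetrix arrays, per the submitters' processing notes. This method corrects background, normalizes between arrays and summarises probe sets, so a level is relative to its array's whole RNA and not an amount per bone. The version used was not given in the sources used here. Each column matched a sample. The number of arrays limits the precision.

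Every row was tested with limma 3.58.1 in R 4.3.3 (lmFit with 4 group means, eBayes with trend, 12 residual degrees of freedom), two-sided, with Benjamini-Hochberg adjustment over all 31099 rows and a threshold of 0.05. The scripts were tested on simulated data. In a balanced design the diet contrast within a tissue is orthogonal to the difference that chose the members, but not independent of it where spreads differ: the members' mean level had an SD of 0.32 in control bone with marrow and 0.073 under vitamin A. Labels do not say that animals were separate beyond their codes, so p-values measure the spread between these samples.

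Named rows were, by rule, those with the highest tissue difference, those at the limit, those with the lowest p for vitamin A in each direction and tissue and for the difference of effects (since no member was called), and those with the lowest and highest remaining level. Rows 7867, 7252, 3899, 3559, 14862 and 25513 were chosen after their values were seen. The members and the rule were chosen with earlier results of these data known. Figures were drawn with matplotlib 3.10.9.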

Additional observations from a re-analysis of the deposited data

Results flagged for a closer look

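Of 120 groups of 4 arrays looked at, 5 had 1 array far from the other 3. The groups were those of the remaining level per array, of the named rows, and of rows added after their values were seen. Rows were added for diet groups without overlap, calls in an alternative fit, the highest effects with marrow or the widest range. For rows chosen in that way the chance figure of about 6 does not hold, so the count is a description only. Row 13194 stood in bone with marrow under vitamin A at 6.75 in array 2 and between 8.18 and 8.38 in the others (gap over range 0.88). Row 472 stood there at 7.48 in array 1 and between 7.73 and 7.79 in the others (0.834). Row 7252 stood in cortical bone at 6.03 in control 3, with the other controls between 6.84 and 7.0 (0.84), and at 6.57 in vitamin A array 4, with the others between 5.88 and 5.94 (0.92). Row 14862 stood at 9.10 in bone with marrow control 1 and between 5.10 and 5.57 in the other controls (0.881), although control 1 was the lowest control in 186 of the 200 members. Causes were not tested.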

How the results depend on the processing

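The count of members called in bone with marrow, 0 in the fit of all arrays, was 2 with array weights (rows 518 and 324), 1 with only the 8 arrays of the tissue (row 1098), 1 without both contradictory arrays (row 324), and between 0 and 1 without each array in turn. In cortical bone it lay between 0 and 3 without each array. For these alternative fits the calls over all rows are not given, here or above. The counts therefore do not show whether members gained more calls than other rows. At an unadjusted p under 0.05 the counts were 27 and 58. For the difference of effects it was 0 in all 32 alternatives. The median effect over members stayed below 0 in cortical bone in all 29 alternatives (-0.66 to -0.21). With marrow it lay between -0.41 and -0.20 without single arrays, and turned to 0.039 when the tissue field placed the contradictory arrays and to 0.11 with the position covariate, an alternative chosen after seeing the data. By tissue field, row 1916 in cortical bone turned to -0.012 and the difference of effects of row 324 to 0.13. The mean remaining level lay between 37.3% and 47.6% in cortical controls and between 26.8% and 36.9% under vitamin A over 13 alternatives each, including a floor subtracted from each array and 50 or 400 rows. The rule fixes much of the remaining level over both diets, so these narrow ranges support nothing. Quantile normalization and median centring called 0 members.

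Replicate numbers are shared between the groups, though each array carries an animal code of its own. Same-numbered arrays of both diets did not all deviate together over all rows (correlations of 0.0075 to 0.40). The number 4 arrays had the highest, 0.40 in cortical bone and 0.38 with marrow. Vitamin A array 4 was the best match of control 4 in both tissues, as was array 3 of control 3 with marrow (0.17). A reason for this was not tested. With the replicate block 0 members were called in either tissue, and the medians were -0.29 and -0.37.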

Other observations

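Rows 3899 and 3559 divided the control animals into high and low levels. In cortical bone their lowest control was control 2, where most members had control 3. With marrow, control 1 was the lowest and control 2 the highest, as in most members. Control 3, however, lay close to control 1 there, which was seldom so in the other members: control 3 was the lowest control in 1 member. Their correlations with the mean of the other members, within diets, were 0.20 and 0.30 in cortical bone and 0.61 and 0.70 with marrow. In bone with marrow, row 3899 stood at 7.88 and 7.91 in controls 1 and 3, at 11.18 and 10.86 in controls 2 and 4, and at 10.70, 10.77, 11.08 and 10.49 under vitamin A. In cortical bone, control 2 was the lowest at 7.19, with the other controls at 9.33, 8.73 and 9.95 and the vitamin A arrays at 7.98, 8.65, 8.92 and 9.08. Row 3559 gave the same order among the controls with marrow, at 10.00, 12.87, 10.39 and 12.30, and in cortical controls, at 10.94, 9.45, 10.45 and 11.49. The 2 rows had a correlation of 0.985 over the 16 arrays, which includes the tissue difference. Their effects of 1.30 and 1.06 with marrow were the highest of all members, and neither passed the test (limma adjusted p = 0.582 and 0.563).

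A range of at least 2 log2 units among the 4 arrays of some group was seen in 26 of the 200 members. The median of each member's widest range was 1.31. The share over all rows was not computed, so the count is a description only. Row 14862 had the widest, 4.0 in control bone with marrow. Row 25513 followed with 3.80 in cortical bone under vitamin A, from 4.55 in array 1 to 8.35 in array 4.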
